A study of Glycine max with 6 samples.

Results

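The WRKY genes are the soybean genes whose deposited protein description contains the word WRKY, in upper or lower case. There were 117 of them among the 36827 genes of the whole-series table. The study sequenced RNA of trifoliolate leaves, the compound leaves of soybean (Glycine max), from plants aged 30 days. Of the 6 libraries, 3 are labelled GmRAV1-ox, with the genotype given as GmRAV1, and 3 are labelled DN50, given as wild type. No other allele or treatment is stated for either group. The sources used here do not give the promoter of the GmRAV1 transgene, the number of transgenic lines or the number of plants in a library. The labels do not say that the replicates were separate plants, so each p-value covers no more than the spread among these libraries, which may be technical.

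WRKY proteins are plant transcription factors named for the conserved amino acids of their DNA-binding domain, which recognises the W box, a short promoter element with a TTGAC core. They are sorted into groups I, II (with the subgroups IIa to IIe) and III by the number of these domains and the type of their zinc finger. Many take part in immunity: microbial signals activate MAP kinase cascades, the kinases phosphorylate WRKY proteins, VQ proteins bind them, and salicylic acid and jasmonic acid signalling lie downstream. Others act in leaf senescence, drought and nutrient responses, and in trichome, seed coat and pollen development. RAV proteins are plant transcription factors with an AP2 and a B3 domain, and GmRAV1 is one of them.

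Each library held between 7208496 and 7684540 expected counts over 32456 to 34028 genes. On the first principal component of all tested genes, which held 62.6% of the variance, GmRAV1-ox replicates 1, 2 and 3 lay at 71.6, 100.1 and -16.5, and DN50 replicates 1, 2 and 3 at -64, -10.3 and -81. GmRAV1-ox replicate 3 and DN50 replicate 2 thus lay between the other libraries. Of 26272 genes with enough counts, 184 passed edgeR's quasi-likelihood test at an adjusted p of 0.05, 32 higher and 152 lower in GmRAV1-ox. That split depends on the scaling: with library totals alone it was 84 higher and 149 lower. No gene passed when GmRAV1-ox replicate 1 or 2, or DN50 replicate 1 or 3, was left out. Leaving out GmRAV1-ox replicate 3 gave 5055 such genes, and leaving out DN50 replicate 2 gave 197.

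None of the 3 tested genes annotated as RAV factors separated the groups. Glyma01g22260.1 had 21.4, 17.8 and 31.9 CPM (counts scaled to the size of the library) in GmRAV1-ox replicates 1, 2 and 3, against 22.5, 20.3 and 30.6 CPM in DN50 replicates 1, 2 and 3. Values per library are in this order of replicates throughout. Glyma02g11060.1 had 24.1, 20.9 and 39.0 CPM in the GmRAV1-ox libraries and 29.6, 23.3 and 47.6 CPM in the DN50 libraries. Glyma10g34760.1 had 6.16, 5.74 and 6.06 CPM in GmRAV1-ox, against 4.16, 4.55 and 9.63 CPM in DN50. The groups overlapped for all 3, with log2 fold changes of -0.05, -0.26 and -0.04 and adjusted p-values of 0.928, 0.673 and 0.961 in the edgeR quasi-likelihood test. With library totals alone the signs of Glyma01g22260.1 and Glyma10g34760.1 turned, at folds of 1.07 and 1.09. Glyma20g32730.1, with too few counts for the test, had 12, 23 and 2 counts in GmRAV1-ox and 1, 4 and 3 counts in DN50. Without GmRAV1-ox replicate 3, where 18.3% of all tested genes passed, it also passed, 5.43-fold higher at an edgeR adjusted p of 0.0273. Its lowest GmRAV1-ox library was the one left out. It had enough counts for that fit only through GmRAV1-ox replicates 1 and 2, where it was high. With DN50 replicate 2 also left out, where 26.9% of all tested genes passed, it was 7.14-fold higher (edgeR adjusted p = 0.0149). In that fit Glyma02g11060.1 passed in the other direction, at a fold of 0.574 (edgeR adjusted p = 0.0325). The files do not say which of these genes, if any, counts reads of the transgene, so the groups below are the libraries labelled GmRAV1-ox and DN50.

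Most WRKY genes were weakly expressed in these leaves. By mean FPKM over the 6 libraries, which takes gene length into account, 16 of the 117 reached 10, a further 15 lay from 5 to under 10, 34 from 1 to under 5, and 52 were under 1. The description of 106 members carries the number of an Arabidopsis WRKY gene. The other 11 carry names without that form, and such a number can mean another gene. By the Arabidopsis numbers, 24 members belong to group I, 6 to IIa, 18 to IIb, 21 to IIc, 12 to IId, 15 to IIe and 10 to group III. Through the protein accession, 84 members matched a RefSeq symbol, and 23 of these symbols begin with WRKY. The numbering differs between the sources: Glyma08g43770.1 is described as WRKY 20 and has the symbol WRKY35. The deposited orthology text names WRKY33 for 77 members, WRKY22 for 27, WRKY29 for 12 and a splicing protein for 1, Glyma01g26710.1. That gene is described as WRKY13 from a hit with an e-value of 1.80e-20, while Glyma04g39620.1 matched the same protein at 1.01e-68.

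Glyma09g41050.1, described as WRKY70-like, had the highest level of the family, 164 FPKM on average. WRKY70 of Arabidopsis sits between salicylic acid and jasmonic acid signalling and delays leaf senescence. Its FPKM values were 185, 67.0 and 127 in GmRAV1-ox replicates 1, 2 and 3, against 111, 214 and 277 in DN50 replicates 1, 2 and 3. It alone made up between 14.2% (GmRAV1-ox replicate 2) and 33% (DN50 replicate 2) of the summed FPKM of the family. The next members by mean FPKM were the WRKY3-like Glyma08g26230.1 at 28.3, the WRKY51 Glyma06g15220.1 at 28.1 and the WRKY33 Glyma02g39870.1 at 27.2. They were followed by the WRKY3-like Glyma18g49830.1 at 20.4, the WRKY4-like Glyma02g12490.1 at 19.7, the WRKY11 Glyma15g18250.1 at 16.0 and the WRKY31-like Glyma15g11680.1 at 15.7. Those 7 levels lie within a range that single libraries of Glyma06g15220.1 and Glyma02g39870.1 span, so their order is not firm.

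No WRKY gene passed the test between GmRAV1-ox and DN50. Of the 117 members, 54 had enough counts to be tested. The other 63 did not, and 21 of these had under 10 counts summed over the 6 libraries. Among the 54, the edgeR quasi-likelihood test called 0 higher and 0 lower, against 0.122% of all tested genes called higher and 0.579% called lower, 0.700% in all. At an unadjusted p under 0.05 there were 0 higher and 2 lower, which is 3.7% of the tested members, where 21.3% of all tested genes had such a p. The shares of all tested genes with such a p were 10.6% higher and 10.7% lower. The smallest adjusted p among the members was 0.196.

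Among the other tools and settings run on all 6 libraries, only DESeq2 called a WRKY gene. It called 1 member, where it called 4.79% of all its genes. limma called 0 members on log2(FPKM + 1), where 0.356% of all genes passed, and 0 on log2(FPKM + 0.1), where 0.253% passed. With edgeR, 0 members were called with RLE factors (0.670% of all genes), with library totals alone (0.887%) and with at least 10 counts in 3 libraries (0.695%). Without a filter on low counts edgeR called 0 of the 117 members, where 0.796% of all genes passed. That fit had 3 members higher and 5 lower at an unadjusted p under 0.05, together 6.84%, against 9.46% of all genes higher and 8.61% lower, together 18.1%. Its smallest adjusted p among the members was 0.109.

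The estimates were mostly small. The 54 log2 fold changes ran from -2.0 to 0.43, with 23 above and 31 below 0. Their median was -0.15, beside 0.01 over all tested genes, and their median size without sign was 0.26, beside 0.33. Both medians shift with the scaling: with library totals alone the members' was 0.03 and that of all genes 0.20, and 27 of the 54 estimates were above 0. For 21 of the 54 the 95% interval of the fold change lay within 2-fold in either direction, and 13 of those were among the 16 tested members of group I. The 3 GmRAV1-ox values lay wholly above the 3 DN50 values for 1 member and wholly below them for 3, together 7.41% of the tested members. Over all tested genes the shares were 12.9% above and 13.1% below.

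**Figure D1:**
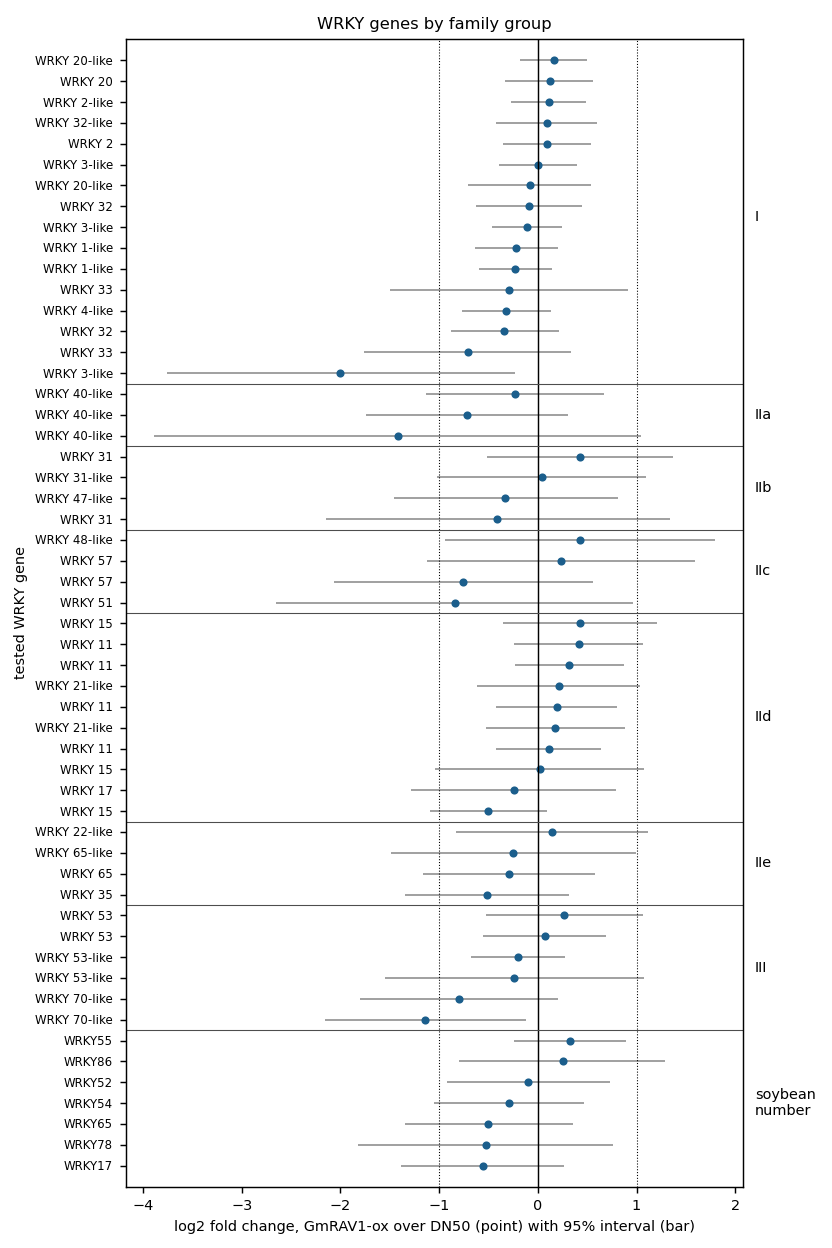
Fitted log2 fold changes, GmRAV1-ox over DN50, on the horizontal axis for the 54 tested WRKY genes (points, with 95% intervals as bars), arranged by family group down the page. The intervals of all but 2 genes, the WRKY70-like Glyma06g14720.1 and the WRKY3-like Glyma20g03410.1, include 0, and group I has the smallest median standard error (0.20). The group marked soybean number holds members whose description carries no Arabidopsis number.

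Members of group III include the WRKY70-like and WRKY53 genes, which in Arabidopsis delay and promote leaf senescence. For Glyma09g41050.1 (WRKY70-like) the libraries held 146, 48.8 and 112 CPM in GmRAV1-ox, against 111, 191 and 232 CPM in DN50. GmRAV1-ox replicate 2 was the lowest library and DN50 replicates 2 and 3 the highest, while GmRAV1-ox replicates 1 and 3 lay within or at the edge of the DN50 range. The means were 102 ± 49.4 CPM in GmRAV1-ox and 178 ± 61.1 CPM in DN50 (SD, n = 3 each), a log2 fold change of -0.80 (SE 0.43, 95% interval -1.80 to 0.20, edgeR adjusted p = 0.319). A second WRKY70-like gene, Glyma06g14720.1, had 11.2, 5.86 and 7.65 CPM in GmRAV1-ox and 11.2, 12.4 and 30.5 CPM in DN50. Replicate 1 of the 2 groups gave almost the same value, and the highest value was that of DN50 replicate 3. Its log2 fold change was -1.14 (SE 0.44, 95% interval -2.16 to -0.12, edgeR adjusted p = 0.200), and it is 1 of the 2 members with an unadjusted p under 0.05. Without any 1 of the 6 libraries, its log2 fold change lay between -1.42 and -0.53. Its counts were not whole in 3 libraries, so how the authors' counting shared its reads with other genes is uncertain.

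The WRKY53 and WRKY53-like genes of group III did not pass the test either. The one most expressed, Glyma03g41750.1, had 6.29, 7.3 and 7.8 CPM in GmRAV1-ox, against 7.54, 4.55 and 8.31 CPM in DN50. The WRKY53-like Glyma19g44380.1 had 6.29, 5.74 and 6.5 CPM in GmRAV1-ox and 7.39, 7.54 and 6.33 CPM in DN50. Glyma08g02580.1 (WRKY53) had 3.21, 2.75 and 5.49 CPM in GmRAV1-ox, against 3.39, 3.27 and 2.77 CPM in DN50. The groups overlapped in all 3, with log2 fold changes of 0.07, -0.20 and 0.27 and edgeR adjusted p-values of 0.909, 0.612 and 0.681. Glyma05g36970.1 (WRKY53-like) had 4.36, 1.32 and 7.65 CPM in GmRAV1-ox and 5.54, 3.41 and 6.6 CPM in DN50 (log2 fold change -0.24, edgeR adjusted p = 0.837), again with overlap. The untested WRKY53-like Glyma06g13090.1 had 1, 0 and 7 counts in GmRAV1-ox, against 6, 5 and 8 counts in DN50. The untested WRKY53 gene Glyma01g43420.1 had 6, 4 and 16 counts in GmRAV1-ox and 9, 7 and 14 counts in DN50. Whether the WRKY70-like and WRKY53 genes differ in their response was not tested. Of the 10 members of group III, 6 were tested, and their median log2 fold change was -0.22.

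WRKY33, a group I factor that in Arabidopsis is needed for resistance to necrotrophic fungi and for camalexin synthesis, varied widely within the groups. Glyma02g39870.1 had 28.2, 21.2 and 77 CPM in GmRAV1-ox and 38.9, 43.0 and 72.6 CPM in DN50. The third replicate was the highest library in each group, and GmRAV1-ox replicates 1 and 2 were the lowest of the 6. Its means were 42.1 ± 30.4 CPM in GmRAV1-ox and 51.5 ± 18.4 CPM in DN50 (SD, n = 3 each), a log2 fold change of -0.29 (SE 0.51, edgeR adjusted p = 0.770). The weaker WRKY33 gene Glyma11g29720.1 had 2.82, 3.23 and 8.09 CPM in GmRAV1-ox, against 7.24, 5.12 and 10.6 CPM in DN50, a log2 fold change of -0.71 (SE 0.45, edgeR adjusted p = 0.395). Here too GmRAV1-ox replicates 1 and 2 were the lowest and the third replicate of each group the highest.

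The other well-expressed group I genes were among the steadiest of the family. Glyma08g26230.1, like WRKY3 of Arabidopsis, which acts in resistance to necrotrophic fungi, had 41.3, 37.6 and 46.2 CPM in GmRAV1-ox and 46.3, 43.0 and 45.2 CPM in DN50. Its highest library stood 1.23 times above its lowest, and the groups overlapped. The log2 fold change was -0.11 (95% interval -0.46 to 0.24, edgeR adjusted p = 0.717), and 0.08 with library totals alone. Glyma18g49830.1, which shares its best protein hit with Glyma08g26230.1, had 30.7, 26.4 and 36.1 CPM in GmRAV1-ox and 30.8, 27.9 and 34.2 CPM in DN50, a log2 fold change of 0.00 (95% interval -0.39 to 0.40). The counts of both genes were not whole in all 6 libraries, so how reads were divided between them is uncertain. Glyma02g12490.1 (WRKY4-like) had 28, 17.6 and 24.4 CPM in GmRAV1-ox, against 27.2, 28.5 and 31.5 CPM in DN50, with GmRAV1-ox replicate 2 lowest (log2 fold change -0.32, edgeR adjusted p = 0.379). Glyma04g12830.1, like WRKY2, which in Arabidopsis acts in pollen and in the zygote, had 21.7, 17.8 and 20.8 CPM in GmRAV1-ox and 18, 16.8 and 21 CPM in DN50 (log2 fold change 0.11, edgeR adjusted p = 0.728). Over the 16 tested genes of group I the median ratio of the highest to the lowest library was 1.49, against 2.18 over the 54 tested members.

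In 3 of the 16 tested group I genes, 1 above and 2 below, the 2 groups did not overlap, where 12.9% of all tested genes lay wholly above and 13.1% wholly below. Glyma02g46690.1 (WRKY20-like) had 19.1, 17.9 and 18.6 CPM in GmRAV1-ox, against 16.8, 17.5 and 15.6 CPM in DN50, a log2 fold change of 0.16 (SE 0.15, edgeR adjusted p = 0.555). Glyma02g47650.1 (WRKY1-like) had 15.4, 13.3 and 12.7 CPM in GmRAV1-ox and 15.9, 16.2 and 16.6 CPM in DN50, a log2 fold change of -0.23 (SE 0.16, edgeR adjusted p = 0.425). The counts of Glyma02g47650.1 were not whole in 4 libraries, so how its reads were shared with other genes is uncertain. The SDs of the 3 libraries were 0.592 CPM in GmRAV1-ox and 0.976 CPM in DN50 for the first, and 1.42 CPM in GmRAV1-ox and 0.383 CPM in DN50 for the second. The third, Glyma20g03410.1 (WRKY3-like), was barely expressed, with 0.770, 0 and 1.01 CPM in GmRAV1-ox and 1.69, 1.99 and 3.30 CPM in DN50. Its log2 fold change of -2.0 (SE 0.77, 95% interval -3.76 to -0.23, edgeR adjusted p = 0.196) was the lowest among the tested members, and it is the other member with an unadjusted p under 0.05. With 6, 0 and 7 counts in GmRAV1-ox and 11, 14 and 25 in DN50, it met the count filter only through DN50. Its place among the tested members thus rests on the group where it was high. Glyma17g08170.1, described as WRKY32, had 7.19, 5.86 and 4.76 CPM in GmRAV1-ox and 7.24, 6.97 and 8.31 CPM in DN50, where the groups overlapped (log2 fold change -0.34, edgeR adjusted p = 0.435).

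**Figure D2:**
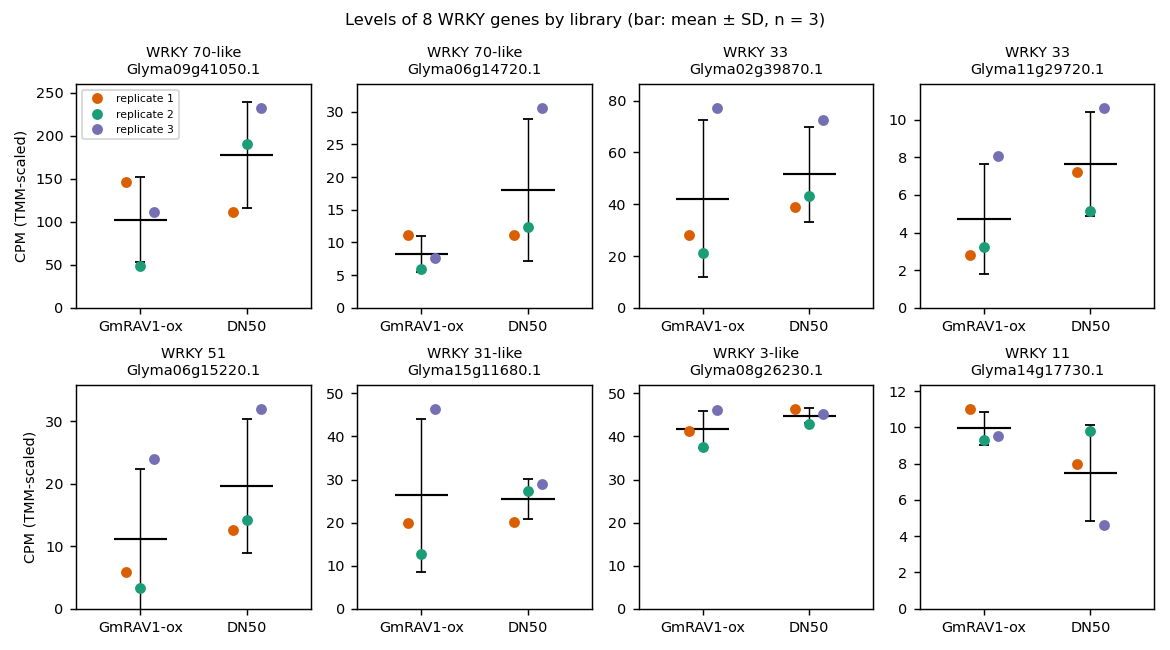
CPM (vertical axes, each from 0 and on its own scale) of 8 WRKY genes in each library, GmRAV1-ox left of DN50 in every panel. Points are libraries, coloured by replicate number, and the lines give the mean and SD of 3 libraries. In the WRKY33 gene Glyma02g39870.1 the third replicate is highest in both groups (77 and 72.6 CPM), while Glyma08g26230.1 (WRKY3-like) stays between 37.6 and 46.3 CPM.

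The 3 tested WRKY40-like genes of group IIa all had estimates below 0, and none passed. WRKY40 of Arabidopsis is a repressor in basal defence and in abscisic acid responses. Glyma07g02630.1 had 3.98, 1.67 and 3.90 CPM in GmRAV1-ox, against 2.92, 5.26 and 7.39 CPM in DN50 (log2 fold change -0.72, SE 0.45, edgeR adjusted p = 0.381). Glyma14g11960.1 had 0.642, 0 and 2.89 CPM in GmRAV1-ox and 0.924, 3.13 and 5.01 CPM in DN50 (log2 fold change -1.42, SE 1.05, edgeR adjusted p = 0.461). In both genes GmRAV1-ox replicate 2 was the lowest library and DN50 replicate 3 the highest. Glyma13g44730.1 had a log2 fold change of -0.23 (edgeR adjusted p = 0.764). Another WRKY40-like gene, Glyma14g11920.1, was too weak for the edgeR test, with 1, 1 and 2 counts in GmRAV1-ox and 3, 20 and 16 counts in DN50. It is the member that DESeq2 called, with a log2 fold change of -3.37 and an adjusted p of 0.0472. Without the count filter edgeR gave it -3.28 and an adjusted p of 0.109.

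In group IIb, the WRKY31 Glyma09g00820.1 and the WRKY31-like Glyma15g11680.1 each had the highest value in GmRAV1-ox replicate 3 and overlapping groups. Glyma09g00820.1 had 21.2, 13.2 and 33.4 CPM in GmRAV1-ox, against 9.85, 17.4 and 22.7 CPM in DN50 (log2 fold change 0.43, SE 0.40, edgeR adjusted p = 0.562). Glyma15g11680.1 had 19.8, 12.8 and 46.3 CPM in GmRAV1-ox and 20.2, 27.3 and 28.9 CPM in DN50 (log2 fold change 0.04, SE 0.45, edgeR adjusted p = 0.967). The counts of both were not whole in 4 libraries. A weaker WRKY31 gene, Glyma13g38630.1, had 3.34, 0.837 and 9.82 CPM in GmRAV1-ox, against 8.62, 4.69 and 5.01 CPM in DN50. Its estimate lay below 0 (log2 fold change -0.41, SE 0.74, edgeR adjusted p = 0.782).

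Group IIc held the member with one of the widest spreads. Glyma06g15220.1 is described as WRKY51, which in Arabidopsis takes part in the repression of jasmonic acid responses by salicylic acid. It had 5.9, 3.35 and 24 CPM in GmRAV1-ox, against 12.6, 14.2 and 31.9 CPM in DN50. GmRAV1-ox replicates 1 and 2 lay below every DN50 library, and GmRAV1-ox replicate 3 lay above DN50 replicates 1 and 2. The means were 11.1 ± 11.2 CPM in GmRAV1-ox and 19.6 ± 10.7 CPM in DN50 (SD, n = 3 each), a log2 fold change of -0.84 (SE 0.75, edgeR adjusted p = 0.548). Glyma17g03950.1 is described as WRKY48-like, and WRKY48 of Arabidopsis is a negative regulator of basal resistance. It had 2.57, 1.08 and 1.16 CPM in GmRAV1-ox and 1.69, 0.427 and 1.45 CPM in DN50 (log2 fold change 0.43, edgeR adjusted p = 0.707). Of the 21 members of group IIc only 4 were tested.

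In group IId, whose proteins bind calmodulin, 8 of the 10 tested members had estimates above 0 and 2 below, with a median log2 fold change of 0.18, and none passed. WRKY11 of Arabidopsis, a negative regulator of basal resistance, belongs here. The WRKY11 gene Glyma14g17730.1 had 11, 9.33 and 9.53 CPM in GmRAV1-ox, against 8, 9.82 and 4.62 CPM in DN50 (log2 fold change 0.42, SE 0.28, edgeR adjusted p = 0.423). Glyma15g18250.1 (WRKY11) had 13.7, 11.4 and 18.8 CPM in GmRAV1-ox and 9.39, 12.7 and 13.1 CPM in DN50 (log2 fold change 0.32, SE 0.24, edgeR adjusted p = 0.468). Glyma09g06980.1 (WRKY11) had 13.1, 9.45 and 13.6 CPM in GmRAV1-ox and 8, 14.2 and 9.37 CPM in DN50 (log2 fold change 0.19, edgeR adjusted p = 0.708). The groups overlapped in all 3. The WRKY15 genes stood on both sides of 0: Glyma17g18480.1 had 5.9, 6.82 and 4.19 CPM in GmRAV1-ox and 2.62, 5.55 and 4.35 CPM in DN50 (log2 fold change 0.43, edgeR adjusted p = 0.484). Glyma01g39600.1 had 6.42, 4.54 and 6.06 CPM in GmRAV1-ox, against 6.31, 9.67 and 8.05 CPM in DN50 (log2 fold change -0.50, edgeR adjusted p = 0.295). With library totals alone the split in group IId was also 8 above and 2 below 0, although all genes shifted upwards as given above. Without the count filter it was 7 above and 3 below.

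The 4 tested members of group IIe, of 15, showed a median of -0.27 on the log2 fold scale and a smallest edgeR adjusted p of 0.438. Among the members without an Arabidopsis number, 7 of 11 were tested, with a median of -0.29. Glyma07g06320.1, described as WRKY55, had 12.4, 9.81 and 7.22 CPM in GmRAV1-ox and 6.93, 8.54 and 8.05 CPM in DN50 (log2 fold change 0.33, edgeR adjusted p = 0.463). Glyma06g06530.1, described as WRKY17, had 2.44, 2.63 and 1.73 CPM in GmRAV1-ox, against 2.31, 3.41 and 4.35 CPM in DN50 (log2 fold change -0.56, edgeR adjusted p = 0.396). The groups overlapped in both.

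WRKY levels also differed between the libraries of 1 group. GmRAV1-ox replicate 2 was the lowest of the 6 libraries for 23 of the 54 tested members (42.6%), where it was the lowest for 24.4% of all tested genes. DN50 replicate 3 was the highest for 20 (37.0%), where it was the highest for 21.1% of all tested genes. The median log2 deviation of the members from their own mean was 0.01, -0.21 and 0.09 in GmRAV1-ox replicates 1, 2 and 3 and -0.01, 0.03 and 0.27 in DN50 replicates 1, 2 and 3. Over all tested genes these medians lay between 0.00 and 0.03. Summed over the family, the FPKM were 647, 471 and 638 in GmRAV1-ox and 475, 648 and 869 in DN50, so the sums of the 2 groups overlapped. The members' median log2 fold change, -0.15 over 54 tested members with all 6 libraries, was -0.01 over 62 when GmRAV1-ox replicate 2 was left out. It was -0.03 over 58 when DN50 replicate 3 was left out instead. The sets of tested members differ between these fits, so the medians do not give the shift over the same members. In these whole-leaf libraries, fewer cells of a type and less RNA per cell cannot be told apart.

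**Figure D3:**
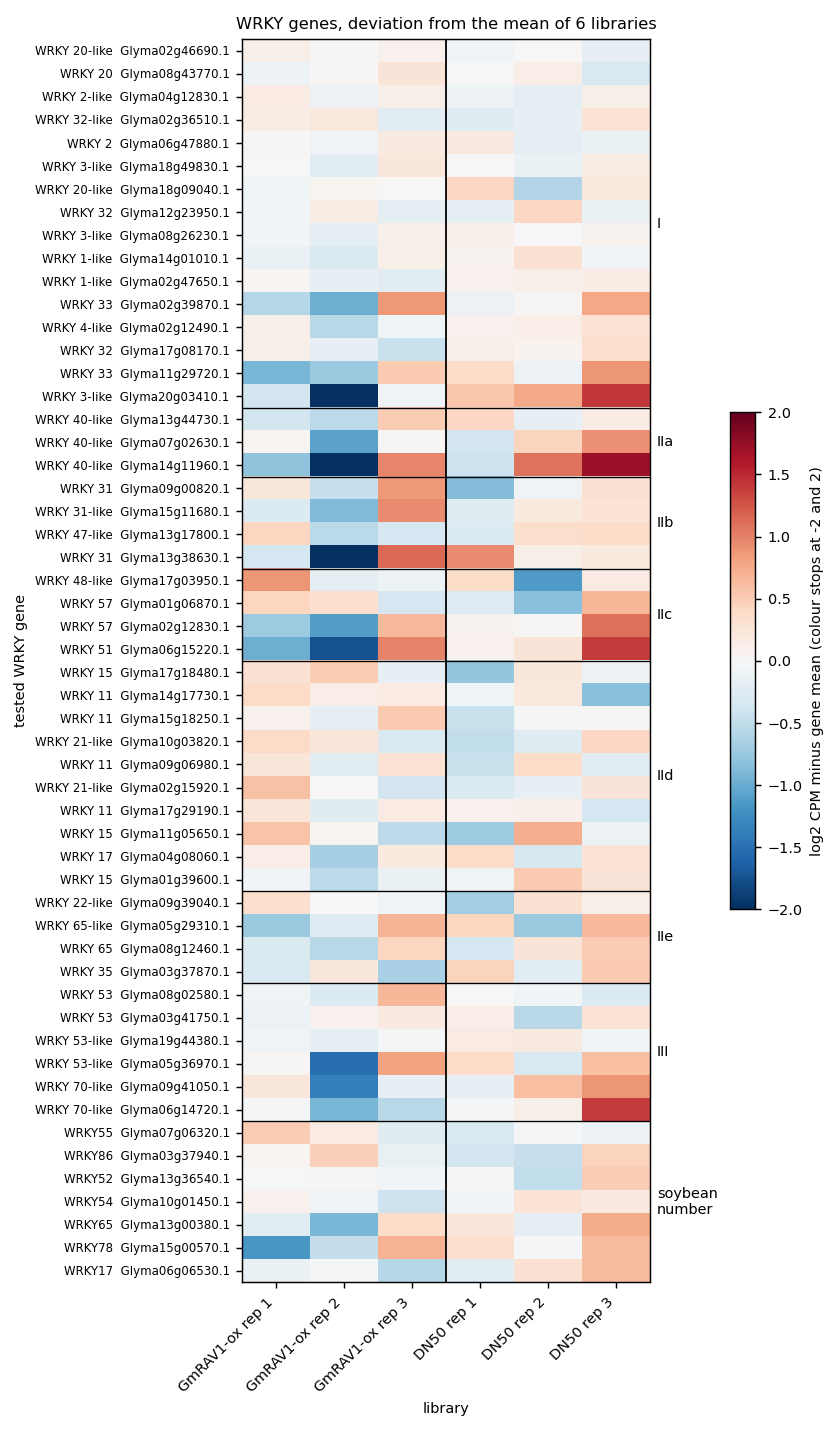
Deviation of each tested WRKY gene (rows, by family group) from its own mean over the 6 libraries (columns, GmRAV1-ox left of DN50), in log2 CPM. GmRAV1-ox replicate 2 is the lowest library for 23 of the 54 genes and DN50 replicate 3 the highest for 20, while most group I rows are pale in every library.

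In edgeR, WRKY genes passed only in fits that left out GmRAV1-ox replicate 3. Without it, 5 of 61 tested members passed, 1 higher and 4 lower. That is 8.2% of them, beside 18.3% of all tested genes, of which 8.62% were higher and 9.66% lower. The 4 lower ones were the WRKY51 gene Glyma06g15220.1 (log2 fold change -2.11, edgeR adjusted p = 0.0250), the WRKY33 genes Glyma02g39870.1 (-1.08, edgeR adjusted p = 0.0366) and Glyma11g29720.1 (-1.35, edgeR adjusted p = 0.0322), and the WRKY40-like Glyma14g11920.1 (-3.73, edgeR adjusted p = 0.0318). The higher one was Glyma19g36100.1, like WRKY44 of Arabidopsis, also known as TTG2, which acts in trichomes and the seed coat (log2 fold change 2.78, edgeR adjusted p = 0.0404). It had 10, 13 and 0 counts in GmRAV1-ox and 2, 0 and 2 counts in DN50, and was not tested with all 6 libraries. Here it met the count filter only through GmRAV1-ox replicates 1 and 2, where it was high, and the GmRAV1-ox library left out had 0 counts. Glyma14g11920.1 met the filter only through DN50 replicates 2 and 3, where that gene was high. Neither call is independent of the filter.

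With DN50 replicate 2 also left out, 8 of 57 tested members passed, 1 higher and 7 lower. That is 14% of them, beside 26.9% of all tested genes, of which 13.9% were higher and 13.1% lower. Added to the WRKY51, WRKY33 and WRKY44-like genes were Glyma13g00380.1, described as WRKY65 (log2 fold change -1.10, edgeR adjusted p = 0.0197), the WRKY31 Glyma13g38630.1 (-1.73, edgeR adjusted p = 0.0499), the WRKY57 Glyma02g12830.1 (-1.78, edgeR adjusted p = 0.0237) and the WRKY3-like Glyma20g03410.1 (-2.72, edgeR adjusted p = 0.0474). Glyma14g11920.1 had too few counts to be tested in that fit. Glyma20g03410.1 met the count filter only through the DN50 libraries, where it was high, and the WRKY44-like gene only through the GmRAV1-ox libraries. WRKY57 of Arabidopsis acts in drought tolerance and in senescence induced by jasmonic acid. GmRAV1-ox replicate 3 and DN50 replicate 2 were left out because they lie between the groups. The estimate then lay farther from 0 for 75.5% of all genes fitted both ways. Among the 53 WRKY genes fitted both ways it lay farther from 0 for 38 and nearer for 15. Leaving out any 1 of the other 5 libraries gave 0 calls among the members, where 0.711% of all genes passed without DN50 replicate 2 and 0.00% without each of the other 4.

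**Figure D4:**
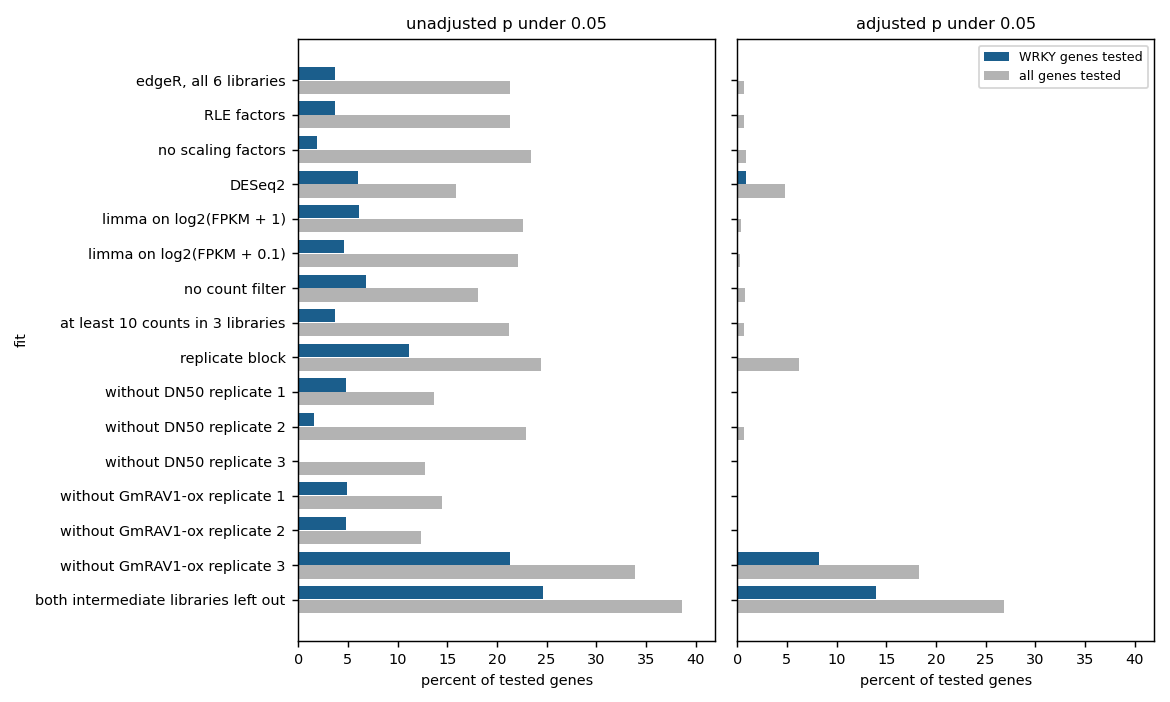
Share of tested genes, in percent (horizontal axes), with an unadjusted p under 0.05 on the left and an adjusted p under 0.05 on the right, for WRKY genes and for all genes, under each fit listed down the page. The last fit leaves out GmRAV1-ox replicate 3 and DN50 replicate 2, and there 14% of the tested WRKY genes passed, beside 26.9% of all tested genes.

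Several members outside the test had counts in 1 group only. The share of all genes with counts in 1 group only is not given here. Among 6 members without a count in any DN50 library were the WRKY49-like genes Glyma07g16040.1, with 5, 21 and 1 counts in GmRAV1-ox, and Glyma18g39970.1, with 6, 13 and 0. With a floor of 3 counts over the DN50 group, scaled by library totals without TMM factors, these came out 9.36-fold and 6.58-fold higher. For these genes edgeR without the count filter gave adjusted p-values of 0.155 and 0.200. Glyma05g25270.1 (WRKY9-like), with 8, 1 and 3 counts in GmRAV1-ox and 0 in DN50, came out 4.16-fold higher in the same way. In the other direction, 4 members had no count in any GmRAV1-ox library, among them Glyma05g01280.1, like WRKY72, a factor of basal defence, with 1, 1 and 5 counts in DN50. It came out 2.24-fold lower, by the same floor and scaling. Also without a count in GmRAV1-ox, Glyma17g10630.1 had 1, 0 and 2 counts in DN50 and Glyma09g24080.1 had 0, 2 and 2. The rest with counts in 1 group only had 1 count in all: Glyma04g40120.1, Glyma09g03450.1 and Glyma01g43130.1 in GmRAV1-ox, and Glyma04g06470.1 in DN50. These genes were named after their values were seen, and their low counts limit what can be read from them.

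Among the genes that act with WRKY proteins, the 1 that passed was a receptor gene caught by its name. VQ proteins bind WRKY factors; 8 genes matched and 4 were tested, with 0 called. The sigma factor binding protein gene Glyma03g28360.1, whose Arabidopsis counterpart SIB1 binds WRKY33, had 18.2, 10.9 and 24.3 CPM in GmRAV1-ox and 40.2, 29.7 and 53.2 CPM in DN50. The groups did not overlap, and its log2 fold change was -1.21 (SE 0.32, edgeR adjusted p = 0.116). The MKS1-like Glyma04g41820.1, a relative of a MAP kinase substrate that binds WRKY33, had 2.44, 2.87 and 4.04 CPM in GmRAV1-ox, against 0.616, 0.427 and 1.19 CPM in DN50. Its groups did not overlap either (log2 fold change 2.02, SE 0.47, edgeR adjusted p = 0.0981). At an unadjusted p under 0.05 the list held 1 higher and 2 lower of the 4, where 10.6% of all tested genes were higher and 10.7% lower.

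Of 84 genes described as members of MAP kinase cascades, which activate WRKY factors, 57 were tested and 0 were called, with a median log2 fold change of -0.15. At an unadjusted p under 0.05 there were 2 higher and 9 lower, where 10.6% of all tested genes were higher and 10.7% lower. The YODA-like kinase Glyma08g16670.1 had 15, 12.4 and 13 CPM in GmRAV1-ox and 22.8, 21.9 and 23.9 CPM in DN50. The groups were well apart, and the log2 fold change was -0.76 (SE 0.16, edgeR adjusted p = 0.0752). The NPK1-like kinase Glyma10g39670.1 had 4.11, 10.4 and 3.61 CPM in GmRAV1-ox, against 2.62, 1.56 and 1.06 CPM in DN50 (log2 fold change 1.80, edgeR adjusted p = 0.129).

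For salicylic acid and EDS1 signalling, 29 genes matched and 17 were tested, of which 1 rose and 0 fell, where 0.122% of all tested genes rose and 0.579% fell. The one called, Glyma12g15860.1, is an immune receptor like SNC1 and matched only because its name mentions npr1. It had 3.72, 4.31 and 3.61 CPM in GmRAV1-ox and 0.770, 0.854 and 0.923 CPM in DN50, a log2 fold change of 2.17 (SE 0.34, edgeR adjusted p = 0.0435). The call was lost when any single library other than GmRAV1-ox replicate 3 was left out, and in limma. The isochorismate synthase gene Glyma03g17420.1, for an enzyme of salicylic acid synthesis, had 16.0, 20.6 and 19.2 CPM in GmRAV1-ox, against 9.39, 11.8 and 7.65 CPM in DN50 (log2 fold change 0.95, SE 0.21, edgeR adjusted p = 0.0900). The NPR1 gene Glyma09g02430.1, for a salicylic acid receptor, had 17.2, 13.2 and 18.2 CPM in GmRAV1-ox and 23.2, 20.9 and 35 CPM in DN50 (log2 fold change -0.71, SE 0.24, edgeR adjusted p = 0.157). Neither of these passed, although the groups did not overlap in either.

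Pathogenesis-related proteins are made in defence. Of the 39 such genes 26 were tested and 0 called, with 3 higher and 2 lower at an unadjusted p under 0.05, where 10.6% of all tested genes were higher and 10.7% lower. Glyma15g06800.1, a basic form of pathogenesis-related protein 1, had 66.9, 5.86 and 96.0 CPM in GmRAV1-ox and 93.1, 383 and 292 CPM in DN50. GmRAV1-ox replicate 2 was the lowest library for this gene, as it was for 24.4% of all tested genes. The groups overlapped (log2 fold change -2.19, SE 0.97, edgeR adjusted p = 0.258). Glyma15g06800.1 is not 1 of the 2 genes with the smallest p in this list, and it was picked with its values known. The thaumatin-like gene Glyma12g03510.1 had 44.9, 45.4 and 16.2 CPM in GmRAV1-ox, against 5.70, 13.8 and 3.69 CPM in DN50 (log2 fold change 2.20, SE 0.58, edgeR adjusted p = 0.122). Glyma08g05820.1, a thaumatin-like gene with the smallest p of the list, had 15.1, 14.2 and 5.49 CPM in GmRAV1-ox and 3.54, 5.26 and 3.03 CPM in DN50 (log2 fold change 1.56, edgeR adjusted p = 0.112).

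Leaf markers were abundant in all libraries. Summed over 34 genes for light-harvesting proteins, the small subunit of Rubisco and phosphoribulokinase, they ranged from 53884.2 to 91522 CPM in GmRAV1-ox and from 68427 to 109177 CPM in DN50. Of the 33 tested, 0 were called and 6 were lower at an unadjusted p under 0.05 (10.7% of all tested genes), and the GmRAV1-ox values lay wholly below the DN50 values for 14, where the share over all tested genes was 13.1%. Vascular markers ranged from 28.9 to 102 CPM in GmRAV1-ox and from 68.3 to 79.2 CPM in DN50, summed over 12 genes, with 0 of 8 tested called. Seed markers, 4 genes with too few counts for the test, summed to 0.120 to 1.41 CPM in GmRAV1-ox and 0.396 to 0.770 CPM in DN50. The list for root and nodule matched only 2 leghemoglobin reductase genes, which are not specific to nodules, at 825 to 1131.5 CPM in GmRAV1-ox and 798 to 1431 CPM in DN50. The part of these markers in the WRKY values was not tested.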

How the data were processed

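Per the file headers, the authors deposited, for each library, expected counts (estimated counts per gene), gene length and FPKM, and a whole-series table that repeats the FPKM values with protein and orthology descriptions. The FPKM values deposited in both were identical. Per the submitters' processing notes, TopHat and Cufflinks were used. The sources used here do not give versions, genome build, annotation or strand setting, so reads of a gene and of an overlapping antisense gene cannot be told apart. All lengths are multiples of 3 and are treated as coding lengths. Between 29.6% and 30.5% of the counts above 0 were not whole.

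Expected counts were rounded, genes absent from a library set to 0, and low genes removed with filterByExpr. Counts were scaled by TMM (factors 1.08, 1.17 and 0.965 for GmRAV1-ox, 0.849, 0.954 and 1.02 for DN50) and tested with edgeR 4.0.16 (R 4.3.3), a 2-sided quasi-likelihood test. P-values were adjusted by Benjamini-Hochberg across the 26272 genes tested, and the threshold was 0.05. CPM values are TMM-scaled. Plots and tables used Python 3.11.15. The alternatives were RLE factors, no factors, DESeq2 1.42.0, limma 3.58.1 on log2(FPKM + 1) and log2(FPKM + 0.1) for genes with a mean FPKM of at least 1, no filter, at least 10 counts in 3 libraries, a replicate block, each library left out, and GmRAV1-ox replicate 3 and DN50 replicate 2 both left out. The edgeR step was tested on simulated data with 200 changed genes. Intervals and floors cover the spread between libraries or counting error only.

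The members and all gene lists were chosen with earlier results of these data known. WRKY genes named are the 10 tested members with the smallest p in each direction, the 8 with the highest mean FPKM, those with Arabidopsis number 6, 18, 33, 40, 53, 70 or 75 and a mean FPKM of at least 5, and any that passed. For the other lists they are those that passed, or the 2 with the smallest p; RAV genes were named in full. Further genes were named after their values were seen. Protein and promoter sequences were not used here, so domain classes, promoter motifs and the closest protein pairs were not computed; family groups follow the Arabidopsis numbers in the descriptions.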

Additional observations from a re-analysis of the deposited data

How the results depend on the processing

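Low counts left 63 of the 117 members untested, and for all but 21 of the 54 tested the 95% interval of the fold change reached beyond 2-fold, which limits what 3 libraries a group can show. The number of WRKY genes called was 0 with RLE factors, no factors, either limma fit, no filter, the stricter filter and the replicate block, 1 in DESeq2, 8 with GmRAV1-ox replicate 3 and DN50 replicate 2 left out, and 0 to 5 with 1 library left out. Adding the 19 genes of the orthology text, an alternative chosen after seeing the data, left it at 0. Over all genes the count was 1764 (760 higher, 1004 lower) in DESeq2, 100 and 71 in limma with pseudocounts 1 and 0.1, 293 without a filter, 7379 without those 2 libraries and 0 to 5055 with 1 left out. With the replicate number as a block it was 1621 (682 higher, 939 lower). Whether the replicate numbers pair the libraries is not stated. The deviations of replicates 1, 2 and 3 correlated across groups at -0.30, 0.40 and 0.30, and those of unlike numbers at -0.50 to 0.37. With 3 libraries a group these values do not settle it.

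The calls in DESeq2, under the block and without both libraries were 2 of 8, 2 of 4 and 2 of 4 tested for VQ proteins, 3 of 84, 2 of 57 and 14 of 61 for MAP kinases, 2 of 29, 3 of 17 and 7 of 19 for salicylic acid genes and 5 of 39, 4 of 26 and 7 of 28 for pathogenesis-related proteins, where 4.79%, 6.17% and 26.9% of all genes passed. RAV genes gave 2 calls without both libraries, 1 higher and 1 lower, and limma called 0 salicylic acid genes with either pseudocount. With 1 library left out the calls were 0 to 2 for VQ proteins, 0 to 9 for MAP kinases and 0 to 5 for salicylic acid genes. They were 0 to 7 for pathogenesis-related proteins and 0 to 1 for RAV genes. Each highest count came without GmRAV1-ox replicate 3, where 18.3% of all genes passed. In this order it was 2 of 4, 9 of 61, 5 of 20, 7 of 28 and 1 of 4 tested. Leaving out any other library gave 0 calls in these lists, where 0.00% to 0.711% of all genes passed. The members' median log2 fold change was 0.03 without factors and -0.21 to -0.01 with 1 library left out, over the members tested in each fit. Of the 27 members that the naming rule gives, 19 kept their direction throughout, and 23 of 405 values reversed. Of 6 further tested members whose values are given, 4 kept theirs. With 1 library left out, the log2 fold changes spanned 0 for Glyma02g39870.1 (-1.08 to 0.03), Glyma03g41750.1 (-0.17 to 0.22), Glyma08g02580.1 (-0.10 to 0.46), Glyma15g11680.1 (-0.67 to 0.37), Glyma17g03950.1 (-0.09 to 0.73) and Glyma18g49830.1 (-0.14 to 0.11), and among the further members for Glyma13g38630.1 (-1.57 to 0.10) and Glyma05g36970.1 (-0.90 to 0.21). Without both libraries they turned to -0.25 for Glyma03g41750.1, -0.01 for Glyma04g12830.1, -0.07 for Glyma08g02580.1, -0.62 for Glyma15g11680.1 and -0.21 for Glyma18g49830.1. Under the block Glyma15g11680.1 gave -0.13 and Glyma18g49830.1 -0.00, and Glyma18g49830.1 also gave -0.01 in DESeq2 and -0.02 without a filter. Glyma08g26230.1 gave 0.08 without factors and 0.07 in both limma fits. The cause of these turns was not tested.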

Other observations

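A further 19 genes carry WRKY33, WRKY22 or WRKY29 in the deposited orthology text while their protein description does not name WRKY. Their number is 11 for WRKY33, 7 for WRKY22 and 1 for WRKY29, and 14 of the 19 were tested. The edgeR quasi-likelihood test called 0 of them, where 0.700% of all tested genes passed, and their smallest adjusted p was 0.0787. At an unadjusted p under 0.05 there were 1 higher and 3 lower, where 10.6% of all tested genes were higher and 10.7% lower. The groups did not overlap for 1 higher and 3 lower, where the shares over all tested genes were 12.9% and 13.1%. The median log2 fold change was -0.58. Glyma18g44560.1, described only as a transcription factor, had 7.57, 3.71 and 6.06 CPM in GmRAV1-ox, against 17.7, 11.8 and 23.6 CPM in DN50, and the groups did not overlap (log2 fold change -1.62, SE 0.34, edgeR adjusted p = 0.0787). Glyma08g15050.1 had 2.69, 0.598 and 4.33 CPM in GmRAV1-ox and 8, 6.26 and 9.23 CPM in DN50, again without overlap (log2 fold change -1.64, SE 0.55, edgeR adjusted p = 0.163). Glyma05g20710.1 lay on the other side, with 15.9, 13 and 9.53 CPM in GmRAV1-ox and 6.31, 6.97 and 8.71 CPM in DN50 (log2 fold change 0.81, SE 0.25, edgeR adjusted p = 0.139). Glyma04g40130.1 was the most variable of these 4, with 41.3, 12.2 and 77.5 CPM in GmRAV1-ox, against 70, 99 and 175 CPM in DN50 (log2 fold change -1.40, SE 0.66, edgeR adjusted p = 0.276). These 4 genes were named after their values were seen.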
